A study of Mus musculus with 16 samples.

Results

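The genes described here are 10 genes of white adipocytes, the fat cells that surround the ducts of the mouse mammary gland: Adipoq, Lep, Retn, Cfd, Plin1, Cidec, Pparg, Fabp4, Lpl and Lipe. They were taken by symbol from the 55146 genes listed in the deposited expression table. Transcripts were measured by bulk RNA sequencing in 16 breast tumours, 4 in each of 4 groups. All tumours came from MMTV-PyMT mice, in which the mouse mammary tumour virus promoter drives the polyoma middle T oncogene in mammary epithelium. Tumours of donors aged 12 weeks were placed in mammary fat pad number 4 of FVB hosts, so each tumour grew in host fat. The hosts received vehicle, an antibody against the immune checkpoint ligand PD-L1 (5 mg/kg, 2 doses a week), the Smoothened inhibitor sonidegib (20 mg/kg every day) or both agents (combination), for 28 days. The labels do not say how many donor tumours were used or whether each library came from its own host, so p-values measure the spread between these libraries. They number the libraries in the order of the groups, so that order and treatment cannot be told apart.

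White adipocytes store triglyceride in a single large droplet, release fatty acids from it on hormonal demand and secrete signalling proteins called adipokines. Their identity is set by the nuclear receptor PPARγ together with factors of the C/EBP family, which switch on the genes of lipid uptake, storage and breakdown. In the mammary gland, adipocytes make up most of the stroma, and a growing tumour displaces and surrounds them.

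The genes have several roles. Adipoq encodes adiponectin, Lep leptin, Retn resistin and Cfd the serine protease adipsin (complement factor D), all secreted. Plin1 encodes perilipin 1, the coat protein of the adipocyte droplet, and Cidec a protein through which droplets exchange and fuse. Pparg encodes PPARγ. Fabp4 encodes a cytoplasmic fatty acid carrier that capillary endothelial cells and macrophages also make, Lpl the lipase that frees fatty acids from circulating lipoproteins, and Lipe hormone-sensitive lipase, which acts inside the cell.

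Each of the 10 identifiers matched the mouse annotation (GENCODE M21, GRCm38), version included, and each gene is protein coding. Plus-strand genes are Adipoq on chromosome 16 (23146536 to 23158028) and Cfd on chromosome 10 (79890853 to 79892655). Lep (29060220 to 29073877, plus strand), Cidec (113424634 to 113435760, minus strand) and Pparg (115360951 to 115490399, plus strand) share chromosome 6. Plin1 (79720218 to 79732903) and Lipe (25379527 to 25398710) lie on the minus strand of chromosome 7, and Retn (3655770 to 3660110) and Lpl (68880491 to 68907448) on the plus strand of chromosome 8. Fabp4 is a minus-strand gene of chromosome 3 (10204088 to 10208576).

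The sequences below are the 250 bases before a transcript start of 5 of these genes (RefSeq, GRCm38.p6), each written 5′ to 3′ on the strand of the gene. Adipoq, Plin1, Lep and Cfd are shown because their transcripts varied together from tumour to tumour in the values that follow. Lipe is shown because its transcript went with them less closely. Capitals mark matches on either strand to common promoter motifs. The TATA box, which places the start of transcription, was searched with the letters TATAAA. The box read by factor NF-Y was searched with CCAAT, and the GC box, read by Sp1, with GGGCGG. The core that C/EBP factors bind was searched with TTGCNNAA. The nuclear receptor element was searched with AGGTCA, which overlaps the direct repeat of it that PPARγ binds with its partner RXR and that was searched by itself. The windows are chr16:23146286-23146535 for Adipoq, chr7:79732777-79733026 for Plin1, chr6:29059971-29060220 for Lep, chr10:79890603-79890852 for Cfd and chr7:25395988-25396237 for Lipe. The window of Lipe is 1 of its 2 in RefSeq and lies inside the gene as annotated above, and that of Plin1 overlaps the 5′ end of its gene.
Adipoq: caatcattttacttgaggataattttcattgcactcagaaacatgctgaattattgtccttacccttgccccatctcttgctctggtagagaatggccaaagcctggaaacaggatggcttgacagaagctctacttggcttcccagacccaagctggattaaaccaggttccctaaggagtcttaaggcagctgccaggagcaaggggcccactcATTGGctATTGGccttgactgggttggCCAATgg
Plin1: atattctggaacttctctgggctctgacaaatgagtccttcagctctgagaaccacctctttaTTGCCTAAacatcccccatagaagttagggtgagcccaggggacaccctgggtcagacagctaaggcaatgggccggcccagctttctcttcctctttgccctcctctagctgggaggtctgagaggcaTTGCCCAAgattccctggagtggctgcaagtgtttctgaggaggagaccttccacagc
Lep: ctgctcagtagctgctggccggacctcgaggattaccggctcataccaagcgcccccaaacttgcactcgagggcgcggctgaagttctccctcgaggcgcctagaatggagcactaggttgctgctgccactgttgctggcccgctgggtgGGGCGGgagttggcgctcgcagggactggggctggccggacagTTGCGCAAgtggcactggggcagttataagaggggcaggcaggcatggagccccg
Cfd: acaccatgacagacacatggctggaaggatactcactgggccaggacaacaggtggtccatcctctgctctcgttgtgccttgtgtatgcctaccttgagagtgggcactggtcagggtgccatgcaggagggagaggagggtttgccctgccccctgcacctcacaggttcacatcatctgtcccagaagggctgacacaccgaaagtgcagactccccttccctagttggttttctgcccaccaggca
Lipe: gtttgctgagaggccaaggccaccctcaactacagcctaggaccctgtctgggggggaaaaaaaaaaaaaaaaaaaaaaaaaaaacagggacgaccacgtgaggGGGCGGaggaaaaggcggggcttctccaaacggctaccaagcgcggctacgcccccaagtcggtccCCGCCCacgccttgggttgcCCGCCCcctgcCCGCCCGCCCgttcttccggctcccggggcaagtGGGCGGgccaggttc

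RefSeq gave 12 such windows for 8 of the 10 genes, and none for Fabp4 and Lpl. The C/EBP core was found in 4 of the 12 windows, those of Plin1 (2 matches), Lep (a palindrome that matches on both strands), Cidec and Pparg, and in 9.56% of all 32851 mouse windows of this length. CCAAT was in 3 of 12 windows against 33.8%, with 3 matches before Adipoq, and the GC box in 4 of 12 against 32.7%, with 6 matches before Lipe. AGGTCA was in 2 windows, both of Pparg, against 14%, and TATAAA in 1, also of Pparg, against 12.4%. No window of the 8 genes held the direct repeat, which stood in 0.0335% of all windows. The window of Cfd held none of these letters. A match is a description of the sequence only.

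Values are FPKM, fragments scaled to transcript length and to the total of the library, so levels can be set beside each other between genes. Depth, estimated from the steps between low values, was about 33.75 to 58.165 M fragments a library (M, mega), and 11361 to 14784 genes reached 1 FPKM. The lowest of these counts was that of vehicle replicate 3, in which the median gene lay 0.76 below its median over the libraries on the log2 scale, against -0.13 to 0.15 in the others. The epithelial markers Epcam (83.8 to 423 FPKM) and Krt8 (172 to 697 FPKM) were high in all 16 libraries, as the label of breast tumour implies. The combination replicate 1 library stood apart in the adipocyte genes, so several results that rest on it are given with and without it.

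Adiponectin transcript was low in all tumours but 1. In FPKM, Adipoq was at 0.877, 0, 0 and 0.202 in vehicle replicates 1 to 4, at 0.494, 0.882, 0.0365 and 0.0953 with anti-PD-L1, at 0.0128, 0.0128, 0.0156 and 0.952 with sonidegib, and at 7.60, 0.125, 0.564 and 0.475 with the combination. One fragment on its transcript of 1292 bases is worth about 0.0157 to 0.0271 FPKM at these depths, so 3 of the sonidegib values stood for about 1 fragment. The highest library, combination replicate 1, was 7.99 times the second, sonidegib replicate 4, and 60.8 times the median of the other 15. All 4 groups overlapped: vehicle, anti-PD-L1 and sonidegib each had 1 or 2 libraries between 0.494 and 0.952 FPKM, and their others were at 0.202 or less.

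Cfd was the most abundant of the adipokine transcripts. Its FPKM were 12.8, 0, 0.0641 and 0.595 with vehicle, 4.99, 6.78, 0.286 and 1.61 with anti-PD-L1, 0.0216, 0.144, 0.107 and 6.86 with sonidegib, and 96.0, 1.70, 6.73 and 3.39 with the combination. Vehicle replicates 2 to 4, anti-PD-L1 replicate 3 and sonidegib replicates 1 to 3 were below 1 FPKM. In combination replicate 1 it was 7.51 times the second highest library, vehicle replicate 1.

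Retn was at 0.273, 0, 0 and 0.0555 FPKM with vehicle, at 0.298, 0.373, 0 and 0.0481 with anti-PD-L1, at 0.0230, 0.0447, 0 and 0.381 with sonidegib, and at 3.66, 0.115, 0.214 and 0.572 with the combination. Lep was lower still, at 0.0293, 0.00804, 0 and 0.0440 FPKM with vehicle, at 0.102, 0.0685, 0 and 0.0113 with anti-PD-L1, 0.00524, 0, 0 and 0.0525 with sonidegib, and 0.399, 0.0359, 0.0595 and 0.0187 with the combination. Each of these adipokine transcripts was listed at 0 in 4 libraries, and no library reached 1 FPKM of Lep. Combination replicate 1 was the highest for both, 6.40 times the next library for Retn and 3.91 times for Lep.

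The droplet genes followed the adipokines. Plin1 was at 0.445, 0.0259, 0.0265 and 0.0694 FPKM with vehicle, at 0.141, 0.486, 0.0324 and 0.131 with anti-PD-L1, at 0.00930, 0.0587, 0.0176 and 0.319 with sonidegib, and at 4.22, 0.0109, 0.238 and 0.120 with the combination. Cidec was at 0.794, 0.0409, 0 and 0.0920 FPKM with vehicle, at 0.223, 0.552, 0.0231 and 0.158 with anti-PD-L1, 0, 0.0208, 0 and 0.989 with sonidegib, and 7.26, 0.0918, 0.411 and 0.204 with the combination. Within the combination group, Plin1 therefore ran from the second lowest of all 16 values to the highest.

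Pparg stayed under 1 FPKM everywhere and had another order. It was at 0.217, 0.230, 0.232 and 0.189 FPKM with vehicle, at 0.861, 0.536, 0.315 and 0.225 with anti-PD-L1, 0.604, 0.180, 0.413 and 0.171 with sonidegib, and 0.834, 0.477, 0.267 and 0.224 with the combination. It was the only gene of the 10 whose highest library was not combination replicate 1, which came second after anti-PD-L1 replicate 1. The vehicle libraries were alike (0.217 ± 0.0199, SD, n = 4), while the 3 treated groups each held both low and high libraries.

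Fabp4 was detected in every library. It was at 1.79, 0.547, 0.805 and 2.27 FPKM with vehicle, at 5.06, 10.4, 3.67 and 1.67 with anti-PD-L1, 3.44, 2.19, 3.26 and 5.34 with sonidegib, and 26.2, 5.74, 6.30 and 6.40 with the combination. All 4 combination libraries lay above all vehicle and all sonidegib libraries, and they overlapped only with anti-PD-L1, whose replicate 2 was at 10.4. In sonidegib replicates 1 to 3, where Adipoq stood at about 1 fragment, Fabp4 was at 2.19 to 3.44 FPKM.

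The lipases were detected in every library as well. Lpl was at 3.28, 2.07, 1.20 and 0.854 FPKM with vehicle, at 2.90, 4.57, 1.75 and 2.29 with anti-PD-L1, 1.36, 1.60, 0.731 and 0.999 with sonidegib, and 5.84, 0.850, 1.75 and 1.58 with the combination. Its sonidegib libraries all lay below its anti-PD-L1 libraries. Lipe was at 5.14, 4.22, 2.37 and 2.77 FPKM with vehicle, at 2.38, 4.22, 3.07 and 3.44 with anti-PD-L1, 3.31, 4.93, 2.79 and 2.38 with sonidegib, and 7.15, 3.23, 3.65 and 2.53 with the combination. Its groups overlapped throughout, and combination replicate 1 was 1.39 times the next library.

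**Figure D1:**
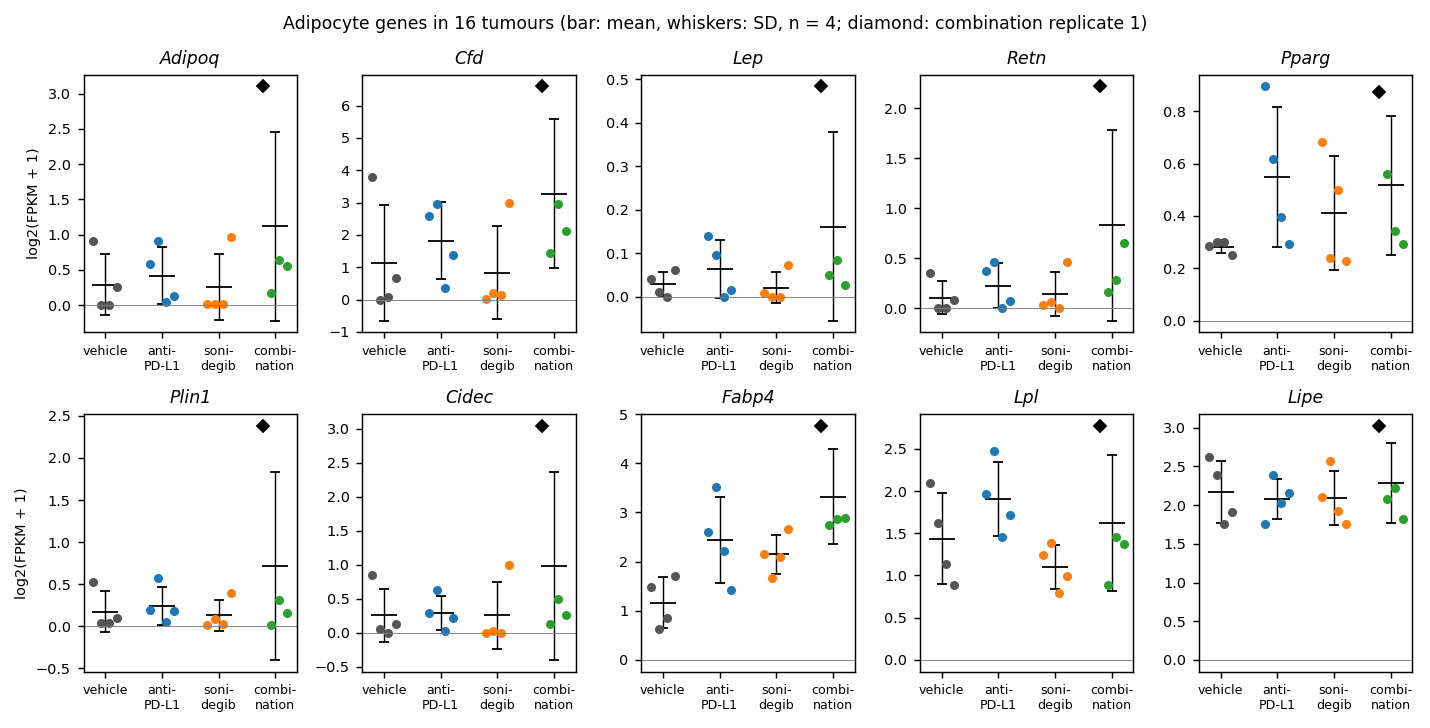
Level of each of the 10 genes, as log2(FPKM + 1), in the 16 tumours by group; points are libraries in replicate order, the bar is the group mean, whiskers are the SD (n = 4) and the black diamond is combination replicate 1. The diamond is the highest point for 9 of the 10 genes, and the Fabp4 points of the combination lie above all those of vehicle.

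Combination replicate 1 was thus the highest library for 9 of the 10 genes, while 1.24% of the 15105 genes tested had their highest value there. The 15105 do not hold the 6 genes below the filter; of the 22940 genes below it with a value above 0 in any library, 6.12% were highest there. It held 61.6% of the sum over the 16 libraries for Adipoq, 66.5% for Plin1, 67.6% for Cfd, 66.8% for Cidec, 60.4% for Retn and 47.8% for Lep. The shares were 30.8% for Fabp4, 17.4% for Lpl, 14% for Pparg and 12.4% for Lipe. Without that library the combination group averaged 0.388 ± 0.232 FPKM of Adipoq (SD, n = 3), against 0.270 ± 0.416 with vehicle, 0.377 ± 0.393 with anti-PD-L1 and 0.248 ± 0.469 with sonidegib (n = 4 each). For Plin1 the same averages were 0.123 ± 0.114, 0.142 ± 0.203, 0.198 ± 0.198 and 0.101 ± 0.147 FPKM. In bulk tissue, more fat cells in a sample and more RNA of these genes in each fat cell cannot be told apart.

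The first question was which of the genes differed between treatments, and the series names the comparison across all groups as its main one. A gene was tested across the whole table when it reached 1 FPKM in at least 4 libraries, which Fabp4, Cfd, Lpl and Lipe did. Because the filter favours genes that are high in some group, a count over these 4 says nothing of the 10. Across the 4 groups limma called none of the 4 at a Benjamini-Hochberg adjusted p under 0.05, against 0.0199% of all tested genes (3 genes), and 1 of the 4 had an unadjusted p under 0.05, against 23.7% of all genes. That gene was Fabp4 (unadjusted p = 0.00177, adjusted p = 0.162). It was called across the groups without combination replicate 1 (adjusted p = 0.0275), where 1831 of 15105 genes were called, and without vehicle replicate 4 (adjusted p = 0.0250), where 3321 were.

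Fabp4 rose in the combination relative to vehicle. It averaged 11.2 ± 10.1 FPKM with the combination and 1.35 ± 0.813 with vehicle (SD, n = 4 each), a difference of 2.15 on the log2(FPKM + 1) scale (SE 0.45; adjusted p = 0.0342 by limma). It was the only one of the 4 tested genes called in this comparison, in which 11.3% of all tested genes were called (10.3% higher) and 33.6% had an unadjusted p under 0.05. The exact two-sided permutation test of the mean FPKM gave p = 0.0286, the smallest that 4 against 4 libraries can reach, and 3.12% of the tested genes were likewise higher without overlap. The difference did not rest on combination replicate 1: without it the other 3 libraries averaged 6.15 ± 0.358 FPKM and the log2 difference was 1.67 (SE 0.37, adjusted p = 0.00470). The call was lost without combination replicate 2 (adjusted p = 0.0990) or 4 (0.130) and without vehicle replicate 1 (0.0515), 2 (0.0802) or 3 (0.114), with log2 differences of 1.97 to 2.34.

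Libraries also differed in how level followed the GC content of genes. The slope of a library's log2 deviation on the GC fraction of the transcript was 3.02 ± 2.24 with vehicle and -1.69 ± 2.75 with the combination (SD, n = 4), and the Fabp4 transcript has a GC content of 42.7%. With the slope as a covariate the Fabp4 difference was 2.35 and not called (limma adjusted p = 1.0). With the GC trend removed from each library it was 1.78 (limma adjusted p = 0.0525). The part of GC content in the difference was not tested further.

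The single agents gave Fabp4 levels between those of vehicle and the combination. It averaged 5.20 ± 3.74 FPKM with anti-PD-L1, a log2 difference from vehicle of 1.27 (SE 0.45, limma adjusted p = 0.158), and 3.56 ± 1.31 with sonidegib, a difference of 0.98 (SE 0.45, limma adjusted p = 0.174). No gene of the table was called in either comparison (0% of 15105), although 24.6% and 27.3% had an unadjusted p under 0.05. Both counts rest on vehicle replicate 4: without it 3927 of 15105 genes were called with anti-PD-L1, Fabp4 among them (1.45, limma adjusted p = 0.0463), and 3974 with sonidegib. These comparisons share the vehicle libraries with that of the combination. From the combination to each single agent the Fabp4 difference was 1.17 against sonidegib (SE 0.45, limma adjusted p = 0.959) and 0.88 against anti-PD-L1 (SE 0.45, limma adjusted p = 0.837), where 0% and 0.00662% of all genes were called. Without combination replicate 1 these differences fell to 0.69 and 0.40. Combination and sonidegib libraries did not overlap (exact permutation p = 0.0286), which held for 0.483% of the tested genes in that direction. Between sonidegib and anti-PD-L1 the difference was -0.29, and 0% of genes were called. The interaction, the departure of the combination from the sum of both single effects, was -0.10 (SE 0.64, limma adjusted p = 0.95), with 0.00662% of genes called.

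By mean, Fabp4 thus ran in the order combination, anti-PD-L1, sonidegib and vehicle. Neighbours in that order could not be told apart beyond their spread: combination and anti-PD-L1 overlapped (exact permutation p = 0.343), as did anti-PD-L1 and sonidegib (exact permutation p = 0.571) and sonidegib and vehicle (exact permutation p = 0.0571).

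Cfd, Lpl and Lipe were called in no comparison. Cfd averaged 27.0 ± 46.1 FPKM with the combination and 3.36 ± 6.29 with vehicle, and the log2 difference of 2.14 was about as large as that of Fabp4 but with a far larger error (SE 1.20, limma adjusted p = 0.227). Without combination replicate 1 it was 1.04, so a single library moved the value by more than any other left out. Against sonidegib the Cfd difference was 2.44 (SE 1.20, limma adjusted p = 0.959), and 1.34 without that library. Lpl was lower with sonidegib (1.17 ± 0.385 FPKM) than with anti-PD-L1 (2.88 ± 1.22) in every library, with a log2 difference of -0.80 (SE 0.34, limma adjusted p = 1.0, exact permutation p = 0.0286). The 2 groups did not overlap in that direction for 0.51% of the tested genes. From vehicle to combination Lpl differed by 0.19 (SE 0.34) and Lipe by 0.12 (SE 0.27), both within their errors, and the differences of Lipe over all comparisons and the interaction stayed between -0.09 and 0.28. Once the GC slope entered the fit, these differences were larger: 3.88 for Cfd, 0.91 for Lpl and 0.71 for Lipe, with unadjusted p of 0.0252, 0.0287 and 0.0247 by limma, and none was called (adjusted p = 1.0). In that fit all 4 tested genes had an unadjusted p under 0.05, against 2.67% of all genes, and 0 genes of the table were called. Within the combination, replicate 1 alone had a positive GC slope (2.39, against -2.98, -2.56 and -3.61) and was also the highest library for these 4 genes. No fit with the slope left that library out, so the slope and that library cannot be told apart in these larger differences.

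**Figure D2:**
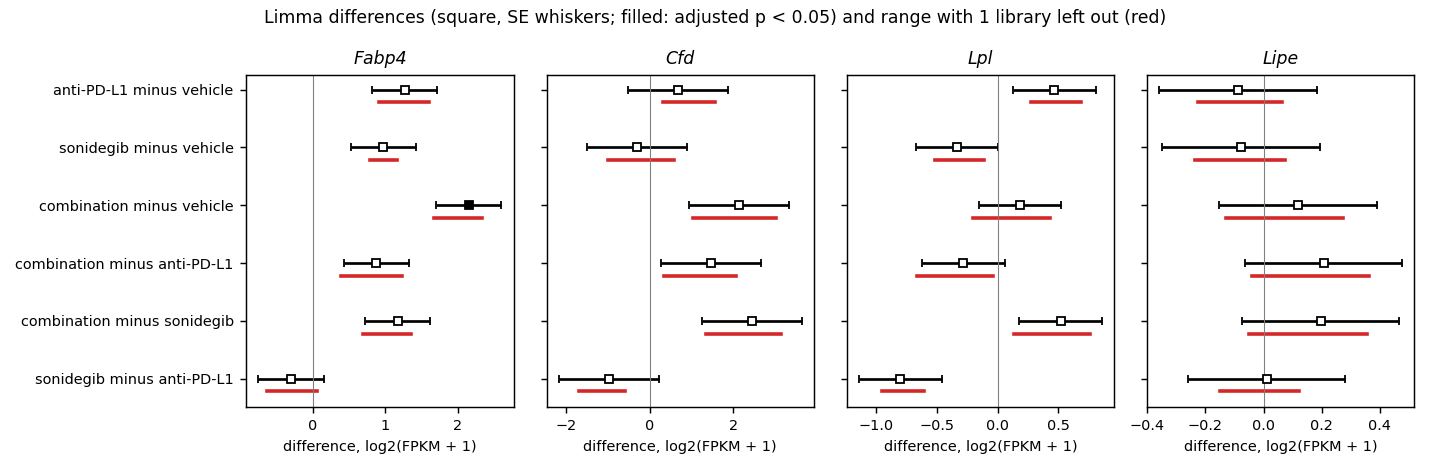
Limma differences on the log2(FPKM + 1) scale of the 4 genes tested across the whole table, for the 6 pairs of groups. Squares with whiskers are the difference and its SE, a filled square has an adjusted p under 0.05, and the red bar is the range with 1 library left out at a time; Fabp4 in the combination minus vehicle (2.15) is the filled square.

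The 6 genes below the filter, Adipoq, Lep, Retn, Plin1, Cidec and Pparg, were outside the fit, and their mean FPKM were compared by exact permutation of the libraries (two-sided, unadjusted). Of the 36 tests over the 6 pairs of groups, 0 had a p under 0.05, also on the log2(FPKM + 1) scale, and the groups overlapped in every one. The lowest was exact p = 0.0857, for Retn between combination (1.14 ± 1.69 FPKM, SD, n = 4) and vehicle (0.0820 ± 0.130) and for Pparg between each of anti-PD-L1 (0.484 ± 0.283) and the combination (0.450 ± 0.278) and vehicle. Without combination replicate 4 the Pparg difference from vehicle was 0.309 FPKM, with an exact permutation p = 0.0286 before any adjustment. That p is the smallest that so few libraries can reach. It comes from leaving out 1 of 8 libraries in turn for each of the 6 genes, a setting added after the data were seen. Adipoq averaged 2.19 ± 3.61 FPKM with the combination, 1.92 above vehicle (exact permutation p = 0.343), and 0.118 above it without combination replicate 1. Plin1 was 1.01 FPKM above vehicle with all libraries (exact permutation p = 0.543) and -0.0187 from it without combination replicate 1, which turned its direction.

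The next question was whether the genes varied together from tumour to tumour. Over the 16 libraries log2(FPKM + 1) of Adipoq correlated with Cfd (Pearson's r = 0.938, Spearman's rho = 0.965), Cidec (0.988 and 0.936), Retn (0.972 and 0.898), Lep (0.947 and 0.859) and Plin1 (0.975 and 0.852). The permutation p of rho was 1e-05 for the first 3, the lowest value those 100000 permutations allow, 4e-05 for Lep and 8e-05 for Plin1, and 3e-05, 3e-05, 3e-05, 9e-05 and 0.00014 after Benjamini-Hochberg adjustment across the 9 relations. Fabp4 followed more loosely (r = 0.778, permutation p = 0.00078; rho = 0.720, permutation p = 0.002, adjusted p = 0.003). Lpl had r = 0.699 (permutation p = 0.0025) but rho = 0.403 (permutation p = 0.121, adjusted p = 0.155), and Lipe r = 0.587 (permutation p = 0.026) but rho = 0.190 (permutation p = 0.476, adjusted p = 0.536). No relation was shown for Pparg (r = 0.472, permutation p = 0.064; rho = 0.093, permutation p = 0.731).

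These relations held without the 2 libraries farthest from the median of Adipoq, combination replicate 1 and sonidegib replicate 4, for 5 of the genes by both measures. Over the other 14, r was 0.957 for Cfd, 0.947 for Cidec, 0.919 for Plin1, 0.845 for Retn and 0.713 for Lep. For Lpl it was 0.691 and for Fabp4 0.555 (permutation p = 0.04, adjusted p = 0.051), so that the relation of Fabp4 by r rests in part on those 2 libraries. By rho, Fabp4 was at 0.651 over the same 14 (permutation p = 0.014, adjusted p = 0.021). For Lipe r fell to 0.246 and for Pparg to 0.175. Within groups, after the group means were taken off, rho was 0.935 for Plin1, 0.929 for Cidec, 0.926 for Lep, 0.923 for Retn, 0.846 for Cfd, 0.821 for Fabp4 and 0.599 for Lpl (permutation p = 0.016, adjusted p = 0.0203), and 0.378 for Pparg and 0.338 for Lipe. The p within groups came from shuffling these deviations over all 16 libraries. Taking off the means ties the deviations of a group together, so that p is approximate and can be too small. All points of a library share its depth and its cut of tissue.

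**Figure D3:**
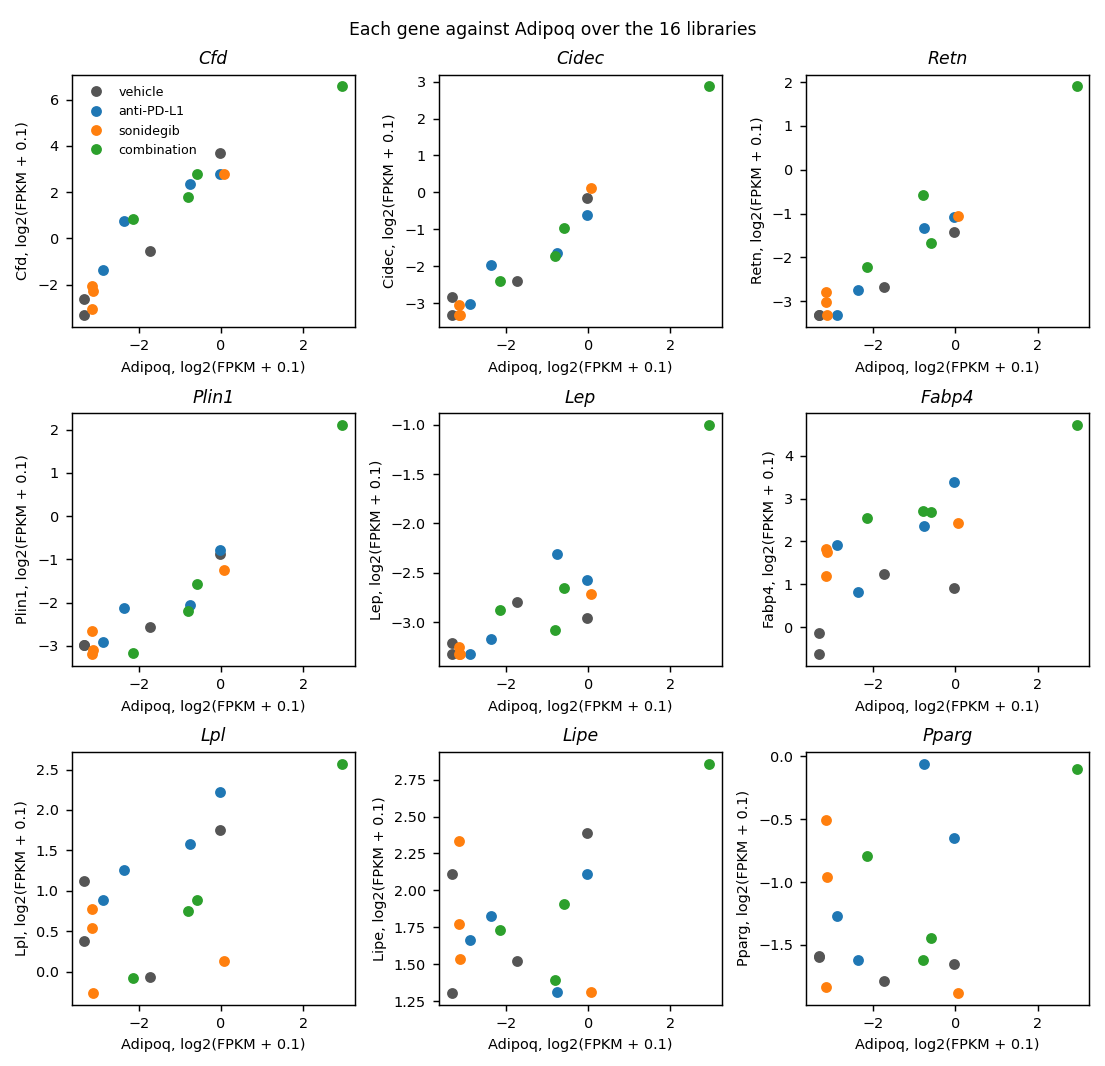
Each of the 9 other genes against Adipoq, both as log2(FPKM + 0.1), with 1 point a library coloured by group. Cfd, Cidec, Retn, Plin1 and Lep lie along a line from the libraries near 0 to combination replicate 1 at the upper right, and Lipe (rho 0.190) and Pparg (rho 0.093) scatter.

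The proportion of each gene to Adipoq was also read. In the 7 libraries with at least 0.4 FPKM of Adipoq, a limit set after the values were seen, the ratio of Cfd to Adipoq in FPKM ran from 7.14 to 14.6 (median 10.1) and was 12.6 in combination replicate 1. The ratio of Plin1 to Adipoq ran from 0.252 to 0.555 (median 0.422) and that of Cidec from 0.429 to 1.04 (median 0.728). The highest ratio was 2.04 times the lowest for Cfd, 2.21 times for Plin1 and 2.42 times for Cidec. Retn varied more, from 0.311 to 1.20 times Adipoq. Lep (0.0334 to 0.207 times Adipoq) and Fabp4 (2.04 to 13.5 times) varied about as much as Lipe. The ratio of Lipe to Adipoq ran from 0.940 in combination replicate 1 to 6.48, that of Lpl from 0.768 in the same library to 5.86, and that of Pparg from 0.110, again there, to 1.74. For Lipe, Lpl and Pparg the library richest in Adipoq had the lowest ratio to it.

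A wider list of mature adipocyte genes was read in the same way. Of 20 genes listed, 19 were in the table, and Tusc5 was not analysed here. Outside the 10 genes above, 12 remain, of which 5, all below the filter, were highest in combination replicate 1. That library was highest for 6.12% of all genes below the filter with a value above 0 in any library. Others of the 12 were not highest there. Slc2a4 was at 0.778 FPKM in that library, against 0.413 to 2.46 in the others, and Cidea at 1.57 against 0.323 to 2.53. Pck1, which supplies glycerol for fat storage, was at 3.04 FPKM there and at 0 to 0.306 in the other 15 libraries, and the droplet protein gene Plin4 at 2.46 against 0.0863 to 0.894. The glycerol channel gene Aqp7 was at 0.339 FPKM against 0 to 0.0961, the adrenergic receptor gene Adrb3 at 0.475 against 0 to 0.135, and the synuclein gene Sncg at 2.81 against 0.0242 to 2.17. The thermogenic gene Ucp1 of brown fat reached 0.0774 FPKM there and was listed at 0 in 11 libraries. No listed marker of endothelial cells, macrophages, epithelium, fibroblasts or skeletal muscle (12 genes each), or of adipocyte progenitors (10 genes), was highest in that library. In the Schwann cell list 1 gene was, Pmp22, at 9.02 FPKM against 2.09 to 8.86 in the others.

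Gpd1 and Adig were detected in every library, also where Adipoq was listed at 0. Gpd1, which makes glycerol phosphate, was at 6.53 to 25.8 FPKM and Adig, an adipogenesis gene, at 3.17 to 14.6 in all 16 libraries. Both were lowest in vehicle replicate 3, where Adipoq was listed at 0 and the median gene was low too. In vehicle replicate 2, where Adipoq was also listed at 0, they were at 15.5 and 5.94 FPKM. Thrsp, a regulator of fatty acid synthesis that mammary epithelium also makes, rose from 24.9 ± 11.1 FPKM with vehicle to 71.4 ± 29.8 with the combination (log2 difference 1.47, SE 0.39, limma adjusted p = 0.0357). It was at 34.0 FPKM in combination replicate 1, the lowest of that group. Car3, a carbonic anhydrase of fat and muscle, was at 0.0907 and 0.717 FPKM in vehicle replicates 2 and 3, where Adipoq was listed at 0. It was at 43.0 FPKM in combination replicate 1 and highest, at 96.6, in anti-PD-L1 replicate 2. That library also had the highest sum of skeletal muscle markers, 760 FPKM, and the part of muscle in the Car3 level was not tested.

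Thrsp was the only one of the 8 tested genes of the mature adipocyte list called between combination and vehicle, and the list median was 0.52 on the log2 scale, against 0.26 over all tested genes. Of 12 tested genes of lipid droplets and lipolysis 0 were called by limma and 0 had an unadjusted p under 0.05 (median 0.16). Of 12 genes of fatty acid uptake and binding 1 was called, Fabp4, with a median of 0.17. The scavenger receptor gene Cd36, which takes up fatty acids, differed by 0.94 (limma adjusted p = 0.0603) and the epidermal fatty acid carrier gene Fabp5 by 1.12 (limma adjusted p = 0.0681). Among 16 genes of fatty acid and triglyceride synthesis 1 was called, the fatty acid synthase gene Fasn, which fell by 1.02 (SE 0.29, limma adjusted p = 0.0382), and the median was 0.03. The single calls in these lists were a share close to or below the 11.3% of all tested genes. All list calls between combination and vehicle, here and in the lists that follow, were lost with the GC slope as a covariate, where 0 of 15105 genes were called. Of the 15105 genes, 10, 6 and 3 were called without vehicle replicate 1, 2 and 3, and 9 and 3 without combination replicate 2 and 4.

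Of 6 tested adipogenic transcription factors 0 were called by limma and 0 had an unadjusted p under 0.05 (median -0.13). Cebpa, the partner of PPARγ in fat cell differentiation, differed by 0.32 (limma adjusted p = 0.336). Of 8 receptors and signal carriers of adiponectin, leptin and insulin 0 were called by limma and 2 had an unadjusted p under 0.05 (median -0.32): the insulin receptor gene Insr differed by -0.66 (limma adjusted p = 0.0598) and the adaptor gene Appl1 by 0.93 (limma adjusted p = 0.0605). Of 4 tested brown and beige adipocyte genes 0 were called by limma, 1 with an unadjusted p under 0.05 (median 0.64), Cox7a1 at 0.95 (limma adjusted p = 0.0596). Adipocyte progenitor genes were called in 3 of 9, all higher (median 0.77): Ly6a by 2.70, the receptor gene Pdgfra by 1.09 and Cd34 by 0.77, against 10.3% of all tested genes called higher and none with the GC covariate. No gene of any list was called in another pairwise comparison, in the interaction or across the groups.

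Markers of other cells that may hold Fabp4 transcript were read beside its levels. The summed FPKM of 12 endothelial markers ran from 22.1 to 31.9 with vehicle, 23.5 to 38.7 with anti-PD-L1, 21.8 to 33.7 with sonidegib and 20.8 to 33.2 with the combination. The defining genes Pecam1 (1.90 to 6.35 FPKM) and Cdh5 (1.83 to 4.00 FPKM) were detected in every library. Of 9 tested endothelial genes 0 were called by limma between combination and vehicle and 3 had an unadjusted p under 0.05 (median -0.04). The sum of 12 macrophage markers ran from 196 to 294 with vehicle, 206 to 310 with anti-PD-L1, 279 to 369 with sonidegib and 308 to 548 with the combination, so that combination and vehicle did not overlap. This was not particular to macrophages. Sums of fibroblast (207 to 537 against 153 to 199), mature adipocyte (121 to 246 against 30.0 to 116) and B cell markers (3.63 to 6.50 against 1.60 to 2.82) did not overlap either. In the mature adipocyte sum, Thrsp, which mammary epithelium also makes, was 106 of 142 FPKM in combination replicate 2. It was 77.9 of 121 in replicate 3, 67.7 of 128 in replicate 4 and 34.0 of 246 in replicate 1. In vehicle replicate 1, the highest of its group, it was 40.6 of 116. Adipoq, Plin1, Cidec and Cfd of that list overlapped between the 2 groups. Only 1 of the 10 B cell genes passed the filter. Of the 12 macrophage markers, 3 were called, all higher (median 0.55): the calcium-binding protein gene Aif1 by 1.81, the mannose receptor gene Mrc1 by 1.30 and the lysozyme gene Lyz2 by 1.5. Markers of that list that were not called include Csf1r at -0.26, Itgam at -0.08 and Cd68 at 0.10. Fibroblast markers were called in 6 of 12, all higher, among them the matrix genes Dcn by 3.15, Postn by 2.83, Lum by 2.75 and Mfap5 by 1.67 (median 0.91). Fibroblast markers not called include Col1a1 at -0.34, Pdgfrb at -0.07 and Col1a2 at 0.10. Pdgfra stands in this list and in that of progenitors. These macrophage and fibroblast calls too stand against 10.3% of all tested genes called higher, and 0 with the GC covariate. Combination replicate 1, the highest for Fabp4, had the lowest sum of its group for macrophage (308), fibroblast (207) and progenitor markers (73.9) and the highest for endothelial (33.2) and epithelial markers (2230). The part of these cells in the Fabp4 difference was not tested.

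Epithelial markers were called in 0 of 12 by limma (1 at an unadjusted p under 0.05, median -0.28), and skeletal muscle markers in 0 of 12 (none at an unadjusted p under 0.05, median -0.24). Muscle varied by library: its sum was 760 FPKM in anti-PD-L1 replicate 2, 408 in combination replicate 4, 260 in vehicle replicate 1 and 8.14 in combination replicate 1. Skin markers were called in 0 of 3, the B cell gene Ighm was the 1 tested gene of its list and called (0.83), and lists of Schwann cells and of pericytes each had 1 gene called higher and 1 lower, of 6 and 7. Without combination replicate 1, 28% of all tested genes were called between combination and vehicle, and the calls were 3 of 12 for uptake and binding, 2 of 8 for receptors, 1 of 4 for brown fat, 4 of 9 for progenitors, 3 of 9 for endothelium, 6 of 12 for macrophages and 2 of 12 for epithelium. They were still 1 of 8 for mature adipocytes, 0 of 12 for droplets and 6 of 12 for fibroblasts.

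**Figure D4:**
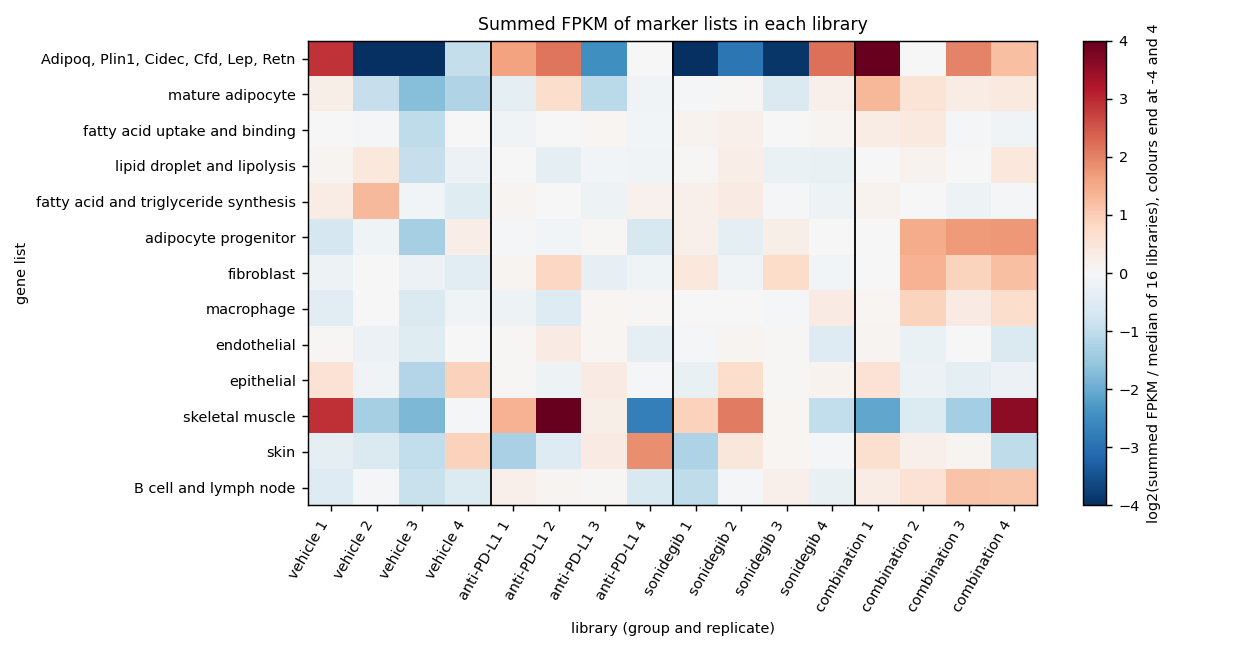
Summed FPKM of each marker list in each library, as log2 of its ratio to the median of the 16 libraries, with colours ending at -4 and 4; vertical lines divide the groups. The top line, the sum of Adipoq, Plin1, Cidec, Cfd, Lep and Retn, ran from -4.84 to 5.85 with its highest value in combination replicate 1, while fatty acid uptake and binding ran from -1.0 to 0.38. The top line leaves out Fabp4, Lpl, Lipe and Pparg, which had smaller shares in that library, and Cfd (96.0 FPKM) makes up most of its sum there.

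The other tested genes were compared with the mean standardised level of Fabp4, Cfd, Lpl and Lipe over the 16 libraries. Genes with predicted (Gm), Rik or clone names were left out, and genes below the filter were not searched. The most alike were Cxcl12, a chemokine gene of stromal cells (r = 0.825), Cd209f (0.814), the microfibril gene Mfap2 (0.808), Mup9 (0.799) and Stard8 (0.786). Next came Rgl1 (0.786), the stromal sialomucin gene Cd248 (0.775), Tppp3 (0.761), Sned1 (0.759) and Tmem8 (0.755). Without combination replicate 1 the r of Mfap2 was 0.853, of Tppp3 and Rgl1 0.775, of Cxcl12 0.758 and of Tmem8 0.712, and those of the other 5 were 0.490 to 0.606. Cxcl12 reached 5.52 FPKM in combination replicate 1, above its range of 1.39 to 4.30 elsewhere, and Mup9 at 10.5 against 0 to 3.70. These likenesses were the highest of all the genes searched and are a description of these libraries.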

How the data were processed

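RNA of 16 mouse tumours, 4 a group, was sequenced. Per the labels' protocols the libraries were stranded and ribosomal RNA was removed, though the molecule label names polyA RNA. The deposited values are FPKM, made by the authors with TopHat and Cufflinks on GRCm38.p6 (mm10) per the submitters' processing notes; no version was given in the sources used here. Here, 1 FPKM was added and log2 taken, and the 15105 genes that reached 1 FPKM in 4 or more libraries were kept. Limma 3.58.1 in R 4.3.3, with trend and robust variance and 1 mean a group over all 16 libraries, gave two-sided tests, adjusted over all tested genes by Benjamini-Hochberg and called under 0.05. Fold differences are on the log2(FPKM + 1) scale, which understates changes of low genes. Genes below the filter were compared by exact permutation. Depth was estimated from FPKM steps over 4959 genes and is approximate. An FPKM of 0 can be a failed estimate. The code was tested on simulated data.

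The 10 genes, the marker lists and the tests were chosen with earlier results of these data known. Named genes are the 10, up to 4 a list with the lowest p, and the 10 genes most like the 4 tested ones. Further genes of the adipocyte, macrophage and fibroblast lists were named after their values were seen. A listed gene is not reported here. Alternatives were other scalings, filters, pseudocounts, GC corrections, the replicate block and each library left out; for genes below the filter, the log2 scale, scaling and left-out libraries were added after seeing the data. GC content came from GENCODE M21 transcripts.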

Additional observations from a re-analysis of the deposited data

Results flagged for a closer look

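In each group of 4 libraries, a gene was singled out when the gap from its most extreme library to the nearest other exceeded 0.829 of the group's range (Dixon's critical value). This held for 16 of 40 pairs of a gene and a group. Normally distributed values would give about 1 in 20 by chance, but these FPKM have a long upper tail, so that share is no measure for them. The pairs are also not independent because the genes vary together. In all 16 the library apart was the highest. There were 7 in the combination, 6 with sonidegib, 3 with vehicle and 0 with anti-PD-L1.

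In the combination the library apart was replicate 1 throughout. Its FPKM and the nearest other value were 7.60 and 0.564 for Adipoq, 26.2 and 6.40 for Fabp4, 4.22 and 0.238 for Plin1, 0.399 and 0.0595 for Lep, 96.0 and 6.73 for Cfd, 7.26 and 0.411 for Cidec, and 3.66 and 0.572 for Retn.

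With sonidegib it was replicate 4, at 0.952 FPKM against 0.0156 for Adipoq, 0.319 against 0.0587 for Plin1, 0.0525 against 0.00524 for Lep, 6.86 against 0.144 for Cfd, 0.989 against 0.0208 for Cidec and 0.381 against 0.0447 for Retn. With vehicle it was replicate 1, at 0.445 FPKM against 0.0694 for Plin1, 12.8 against 0.595 for Cfd and 0.794 against 0.0920 for Cidec.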

How the results depend on the processing

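The Fabp4 difference between combination and vehicle was higher in the combination under all 27 alternatives (log2 1.19 to 2.81) and was called under 18, with adjusted p from 0.00470 to 1.0. The number of the 10 genes called in that comparison fell from 1 to 0 with the GC slope as a covariate, with the GC trend removed, with no filter on low values (Fabp4 adjusted p = 0.120) and with only the 2 groups fitted (0.0587). With 1 library left out it ranged from 0 to 1, as it did across the 4 groups and between anti-PD-L1 and vehicle. The cause was not tested. With the replicate number as a block the Fabp4 difference was 2.15 (adjusted p = 0.0337), no gene of the 10 changed its call, and 1177 genes were called in place of 1703. Only 4 of 24 same-numbered pairs of libraries correlated above 0.1 and 3 of 16 libraries correlated best with their own number, so no pairing by number was seen. These correlations cannot exclude a shared donor or day, which the labels do not give.

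Over all tested genes the count for combination against vehicle was 2808 with median-of-ratios scaling (1667 higher, 1141 lower), 2634 with quantile normalization (1326 higher, 1308 lower) and 1703 without scaling (1559 higher, 144 lower). It was 0 with the GC covariate, 639 with the GC trend removed, 8 without a filter, 25 with 2 groups, and 3 to 4947 with a library left out.

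Of 383 values of single genes under other settings, 21 changed sign, 12 of them with a library left out, and the lowest unadjusted p among the 21 was 0.445. Lpl between combination and vehicle was -0.15 with the GC trend removed, -0.03 with median-of-ratios scaling and -0.0903 with quantile normalization, and Lipe -0.14 and -0.21 with those 2 scalings. The Fabp4 interaction was 0.0521 with the GC trend removed, 0.21 with median-of-ratios scaling, 0.22 with quantile normalization and 0.14 with a pseudocount of 5 FPKM. With a library left out, the ranges were -0.20 to 0.43 for Lpl and -0.13 to 0.27 for Lipe (combination minus vehicle), -0.58 to 0.26 for the Fabp4 interaction, -0.63 to 0.0647 for Fabp4 between sonidegib and anti-PD-L1, and -0.0187 to 1.39 FPKM for Plin1 (combination minus vehicle). Spearman's rho with Adipoq was -0.028 for Pparg with quantile normalization and -0.031 with median-of-ratios scaling, -0.040 for Lipe with the latter, and 0.599 for Lpl within groups. Values of Lep, Retn, Cidec and Adipoq near 0 stand for a few fragments, so depth limits what differences among them can show.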
